A study of Mus musculus with 10 samples.

Results

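A set of 10 genes that encode RNA-binding regulators of neuronal splicing was followed in TdTomato+ and TdTomato- cells of the embryonic mouse brain: the polypyrimidine tract-binding proteins Ptbp1 and Ptbp2, the Nova proteins Nova1 and Nova2, the Rbfox proteins Rbfox1, Rbfox2 and Rbfox3, the microexon regulator Srrm4, and the neuronal Hu proteins Elavl3 and Elavl4. They were taken by symbol from the table of read counts, which held all 10 of them among its 14300 genes. The embryos were Grem1creERT; Rosa26LSLTdtomato mice on the C57BL/6J strain, which carry a tamoxifen-inducible Cre driven by Grem1 sequences and a TdTomato reporter behind a stop cassette. Both populations carried both alleles and came from dams given tamoxifen at E13.5, with collection at E14.5, 24 h later. TdTomato+ cells are those in which Cre was active, together with their progeny, and the TdTomato- population holds all other live sorted cells and is therefore mixed. There were 5 libraries of polyadenylated RNA from each population, numbered by mouse from 2 to 6, and the comparison asks how the RNA of the cells marked by Grem1 differs from that of the remaining sorted cells. The labels name the tissue as brain, and per the methods of the study it was dissected dorsal telencephalon freed of meninges.

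As background, alternative splicing in the nervous system is set by RNA-binding proteins that act on short motifs in and around exons. PTBP1 represses neuronal exons in progenitors and in cells outside the nervous system, and it is replaced by its relative PTBP2 as neurons form. PTBP2 is itself lowered later, as neurons mature. NOVA, RBFOX, neuronal ELAVL and SRRM4 proteins act in neurons, SRRM4 mainly through microexons, and the microRNA miR-124 and the repressor REST belong to the circuitry that controls PTBP1 and neuronal genes.

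The link between Ptbp1 and Ptbp2 runs through an exon that both genes share by descent, and the exon is shown because PTBP1 is known to promote its skipping, which sends either RNA to decay. GENCODE places the Ptbp1 copy at chr10:79862014-79862047 on the plus strand of GRCm38 and the Ptbp2 copy at chr3:119724612-119724645 on the minus strand. Each is 34 bases long, which is not a multiple of 3. The sequences read, 5′ to 3′ on the strand of the gene, with capitals at the 8 positions where the copies differ:
Ptbp1 exon: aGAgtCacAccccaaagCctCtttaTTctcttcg
Ptbp2 exon: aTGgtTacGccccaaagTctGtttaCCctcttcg
The other 26 positions are identical. For Ptbp1, the exon is in 3 annotated protein-coding transcripts and is skipped in 2 transcripts of the nonsense-mediated decay class. For Ptbp2, it is likewise in 3 protein-coding transcripts and is skipped in 2 of the decay class. The deposited counts are per gene, so inclusion of these exons was not measured, and what follows is on RNA levels alone.

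The libraries held 23429034 to 27286180 counts each. Grem1 itself, the check of the sort, was at 6.11 ± 0.73 CPM (counts per 1000000 counts, scaled by TMM; mean ± s.d., n = 5) in TdTomato- cells and at 63.3 ± 3.10 CPM in TdTomato+ cells. Markers fixed for cell classes differed widely between the populations. Of the radial glia markers (Sox2, Pax6 and others), 8 of 8 were lower in TdTomato+ cells, with a summed level of 128 to 176 CPM against 1572 to 1848 CPM, and of the proliferation markers 6 of 6 were lower, with 53.6 to 87.0 CPM against 1502 to 1820 CPM. Neuron markers (Tubb3, Dcx, Map2 and others) were higher in 8 of 8, at 11944 to 13503 CPM against 5360 to 6381 CPM. Markers of interneurons were lower in 6 of 6, at 41.1 to 62.0 CPM against 1256 to 1638 CPM, and those of intermediate progenitors in 5 of 5, at 63.5 to 117 CPM against 826 to 1052 CPM. Of the remaining classes, Cajal-Retzius markers were lower in 5 of 5 (127 to 158 CPM against 213 to 390 CPM), erythroid in 5 of 5, microglia in 4 of 4, oligodendrocyte precursor and pericyte in 3 of 3 each, and endothelium and meninges in 1 of 2 each, and no TdTomato+ library had over 3 counts of the microglia markers P2ry12 and C1qa. No progenitor or interneuron marker was at the floor of 3 counts in every TdTomato+ library. In bulk RNA, fewer cells of a type and less RNA per cell cannot be told apart, and the part of these markers in the results on splicing regulators was not tested.

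All 10 regulators differed between the populations, 6 being higher and 4 lower in TdTomato+ cells, at an adjusted p of 0.05 or less (edgeR's quasi-likelihood test, mouse as a block, Benjamini-Hochberg over 14300 genes). A call was common in this comparison: 77.3% of all genes were called, 37.9% as higher and 39.4% as lower. The count of 10 is therefore to be read through the size of each change and not through the number of calls. Rbfox1, Nova2, Srrm4, Rbfox2, Elavl3 and Rbfox3 were higher, and Ptbp1, Nova1, Elavl4 and Ptbp2 were lower. Each regulator moved in its own direction in all 5 mice, and the ranges of the populations did not overlap for 9 of 10, against 61.6% of all genes. Ptbp2 was the exception. Ptbp1 alone passed an absolute log2 fold change of 2, which 12.9% of all genes did. The median log2 fold change of the 10 was 0.51, beside -0.01 over all genes.

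**Figure D1:**
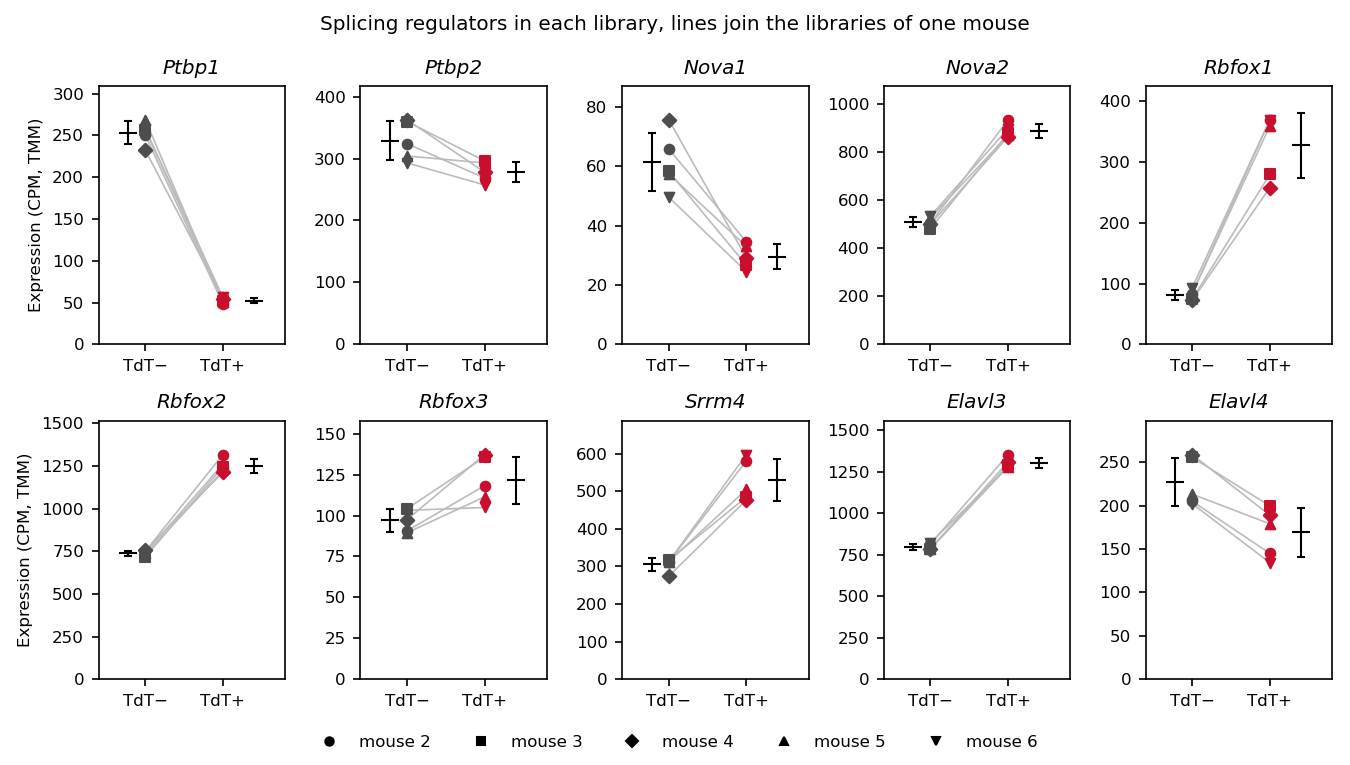
Level of each of the 10 regulators in every library, in CPM scaled by TMM (vertical axes start at 0), in TdTomato- (TdT−, grey) and TdTomato+ (TdT+, red) cells; lines join the libraries of one mouse, symbols mark the mouse, and bars give mean ± s.d. of 5 libraries. Ptbp1 falls from between 232 and 269 CPM to between 48.2 and 56.3 CPM, while the ranges of Ptbp2 overlap.

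Ptbp1 showed the largest change of the set. Its level in mice 2 to 6 was 250.4, 257, 232, 269 and 258 CPM in TdTomato- cells and 48.2, 51.3, 53.9, 50.4 and 56.3 CPM in TdTomato+ cells. Every TdTomato+ library thus held far less Ptbp1 RNA than every TdTomato- library, and the spread within a population was small beside the gap. Ptbp1 was 4.87-fold lower in TdTomato+ cells (log2 fold change -2.28 ± 0.05 s.e., adjusted p = 2.7e-09, edgeR), and 8.41% of all genes had a lower fold change. Ptbp1 lies on chromosome 10 at 79854427 to 79864771 on the plus strand of GRCm38, and 20.7% of its exonic bases overlap other genes, mainly the antisense gene Plppr3. The strand setting of the counts is not known here, so the Ptbp1 values could include reads of the opposite strand. Plppr3, which encodes a phospholipid phosphatase-related membrane protein, was at 364 ± 38.1 CPM in TdTomato- cells against 566 ± 56.3 CPM in TdTomato+ cells (log2 fold change 0.64 ± 0.03, adjusted p = 2.4e-07, edgeR).

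Ptbp2, on chromosome 3 at 119718742 to 119784466, changed little. It stood at 324, 359.8, 363, 304 and 293 CPM in the TdTomato- libraries of mice 2 to 6 and at 268, 296, 278, 293 and 257 CPM in the TdTomato+ libraries. The highest TdTomato+ library, that of mouse 3, exceeded the lowest TdTomato- library, that of mouse 6. Within each mouse the TdTomato+ library was the lower, and Ptbp2 was 1.18-fold lower in TdTomato+ cells (log2 fold change -0.24 ± 0.05, adjusted p = 0.0020, edgeR). With the libraries scaled by their totals alone, its log2 fold change was -0.41 (adjusted p = 5.8e-05, edgeR). None of the 75-base windows of Ptbp2 is shared with transcripts of another annotated gene, in either orientation. For Ptbp1, 11.0% are shared with transcripts of other genes in reverse complement and 1.73% in the same orientation.

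Because Ptbp1 fell further than Ptbp2, their ratio turned. The ratio of Ptbp2 to Ptbp1 per kilobase of exon was 0.668, 0.724, 0.806, 0.584 and 0.587 in TdTomato- cells and 2.88, 2.99, 2.66, 3.00 and 2.36 in TdTomato+ cells of mice 2 to 6. All 5 TdTomato- libraries were below 1 and all 5 TdTomato+ libraries above it. The change in the ratio does not depend on gene length and came to 4.13-fold, a difference of 2.05 ± 0.23 (s.d., n = 5 mice) between the log2 changes of the pair. Whether Ptbp2 lay below Ptbp1 in TdTomato- cells does depend on length: with the longest annotated transcript of each gene, the mean ratio was 1.02 in TdTomato- and 4.21 in TdTomato+ cells. Per read, with no length correction, it was 1.30 and 5.38. Ptbp3, the third PTB gene and most abundant in blood-forming cells, was also lower in TdTomato+ cells, at 12.9 ± 1.85 CPM against 34.3 ± 5.35 CPM (log2 fold change -1.40 ± 0.08, adjusted p = 2.8e-07, edgeR).

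**Figure D2:**
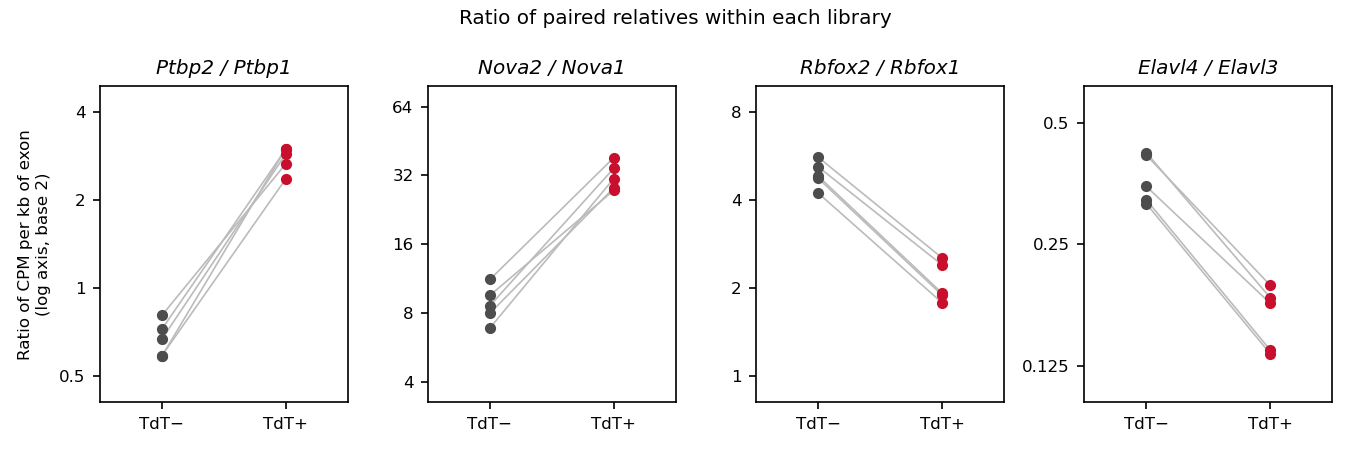
Ratio of CPM per kilobase of exon between relatives in each library (log axis, base 2), in TdTomato- (TdT−) and TdTomato+ (TdT+) cells, with lines joining the libraries of one mouse. The ratio of Ptbp2 to Ptbp1 rises from 0.674 ± 0.094 to 2.78 ± 0.27 and that of Nova2 to Nova1 from 8.86 ± 1.64 to 31.9 ± 4.48 (mean ± s.d., n = 5), while the other ratios fall.

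The Nova genes moved in opposite directions. NOVA1 and NOVA2 are neuronal KH-domain proteins that bind clustered YCAY motifs, and NOVA2 is the main one in the cortex. Nova1 (chromosome 12, 46694517 to 46818929) was at 65.9, 58.3, 75.8, 57.5 and 49.7 CPM in the TdTomato- libraries of mice 2 to 6 and at 34.6, 26.7, 29.1, 33.0 and 24.5 CPM in their TdTomato+ libraries. The populations did not overlap, and Nova1 was 2.07-fold lower in TdTomato+ cells (log2 fold change -1.05 ± 0.08, adjusted p = 2.2e-06, edgeR). Nova2 (chromosome 7, 18925888 to 18965319) was at 504, 481, 499, 526 and 533 CPM in TdTomato- and at 934, 878, 864, 869.7 and 898 CPM in TdTomato+ libraries. It was higher in every TdTomato+ library, by 1.75-fold (log2 fold change 0.80 ± 0.04, adjusted p = 1.3e-07, edgeR). Of the exonic bases of Nova2, 31.7% overlap other genes, chiefly the antisense transcript Gm26821, which was at 3.85 ± 0.84 CPM in TdTomato- cells against 6.51 ± 0.86 CPM in TdTomato+ cells. As for Ptbp1, the strand setting is not known, so the values of Nova2 and Gm26821 could each include reads of the other. The changes of Nova2 and Nova1 differed by 1.85 ± 0.24 on the log2 scale, and Nova2 was 8.86 ± 1.64 times Nova1 per kilobase in TdTomato- cells and 31.9 ± 4.48 times in TdTomato+ cells.

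All 3 Rbfox genes were higher in TdTomato+ cells, by unequal amounts. RBFOX proteins share an RNA-recognition motif that binds UGCAUG, and RBFOX3 is the neuronal nuclear antigen NeuN. Rbfox1 (chromosome 16, 5885355 to 7411526) was at 83.6, 74.3, 72.6, 84.0 and 93.2 CPM in TdTomato- and at 369.7, 279.7, 258, 359 and 369.6 CPM in TdTomato+ libraries of mice 2 to 6. The TdTomato+ libraries of mice 3 and 4 lay below the other three, and those mice were also low in TdTomato- cells. The rise was 3.99-fold (log2 fold change 1.99 ± 0.05, adjusted p = 4.4e-09, edgeR), just under the threshold of 2 on the log2 scale, and 96.8% of all genes had a lower fold change. Without the mouse as a block, or without mouse 3, 4 or 6, Rbfox1 passed that threshold as well, which makes 2 of the 10 past it.

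Rbfox2 (chromosome 15, 77078990 to 77307004), which is expressed beyond the nervous system, had the highest level of the 3 per kilobase. It was at 749, 716, 754, 739 and 729.7 CPM in TdTomato- and 1316, 1244, 1212, 1260.0 and 1220.0 CPM in TdTomato+ libraries. The rise was even across mice, at 1.70-fold (log2 fold change 0.76 ± 0.04, adjusted p = 1.1e-07, edgeR). Rbfox3 (chromosome 11, 118489762 to 118911597) changed least, from 90.7, 104, 97.5, 89.5 and 103 CPM to 118, 136, 137, 111 and 105 CPM. The TdTomato+ library of mouse 6 lay just above the highest TdTomato- library, so the populations were barely apart. The log2 fold change of Rbfox3 was 0.32 ± 0.06 (adjusted p = 0.0015, edgeR), and it was 0.14 with an adjusted p of 0.069 when the libraries were scaled by their totals alone.

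Over all genes, the TdTomato+ libraries of mice 3 and 4 stood apart from those of mice 2, 5 and 6. Chi-square per degree of freedom was 4.46 between them and 16.5 to 32.0 against the others, and every value among the others was below that range. The TdTomato- libraries of mice 3 and 4 were at 8.03 from each other and at 13.1 to 26.5 from the others. Those of mice 5 and 6 were about as close, at 7.69, and that of mouse 2 was at 15.9 and 22.5 from them. Mice 3 and 4 were thus not singled out over all genes in TdTomato- cells. Of the 8 neuron markers in TdTomato+ cells, Tbr1 (2087 and 2026 CPM against 1442 to 1558 CPM) and Syt1 (433 and 423 CPM against 237 to 298 CPM) were higher in mice 3 and 4 than in every other mouse. Snap25 (159 and 147 CPM against 221 to 245 CPM) and Tubb3 (2535 and 2571 CPM against 2616 to 2637 CPM) were lower, and Dcx, Map2, Stmn2 and Neurod6 overlapped. In TdTomato- cells, the summed Cajal-Retzius markers were at 344 and 390 CPM in mice 3 and 4 against 213 to 276 CPM, and the microglia markers at 11.0 and 14.8 CPM against 38.7 to 51.3 CPM. The sums of interneuron, pericyte, erythroid and oligodendrocyte precursor markers were also lower in these mice than in every other, those of neuron and meninges markers higher, and the remaining classes overlapped. In TdTomato+ cells, erythroid sums (8.72 and 25.7 CPM against 1.18 to 5.15 CPM) and interneuron sums were higher in mice 3 and 4. Intermediate progenitor sums were lower there, and the other classes overlapped. The part of these differences in the values of the Rbfox genes and Elavl4 in mice 3 and 4 was not tested. Rbfox1 and Rbfox3 ranked the TdTomato+ libraries in different ways. Mice 3 and 4 had the lowest Rbfox1 and the highest Rbfox3, so that the ratio of Rbfox3 to Rbfox1 per kilobase was 0.367 and 0.403 in these mice and 0.242, 0.235 and 0.215 in mice 2, 5 and 6. In TdTomato- cells the same ratio was 0.820, 1.06, 1.02, 0.806 and 0.838 in mice 2 to 6, again highest in mice 3 and 4. The log2 change of Rbfox3 was smaller than that of Rbfox1 by 1.67 ± 0.24, and that of Rbfox2 was smaller than that of Rbfox1 by 1.23 ± 0.10. Rbfox3 and Rbfox2 differed by 0.44 ± 0.19.

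Srrm4, which encodes the activator of neuronal microexons also called nSR100, was higher in TdTomato+ cells. Srrm4 (chromosome 5, 116439275 to 116591817) was at 312, 317, 274, 313 and 313 CPM in TdTomato- and at 581, 485, 477, 505 and 598 CPM in TdTomato+ libraries of mice 2 to 6. The library of mouse 4 was the lowest in both populations, and the populations were well apart, with a 1.73-fold rise (log2 fold change 0.79 ± 0.05, adjusted p = 1e-06, edgeR). Its relative Srrm3, which acts on an overlapping set of microexons, was at 52.3 ± 5.53 CPM in TdTomato- cells against 106 ± 9.24 CPM in TdTomato+ cells (log2 fold change 1.03 ± 0.04, adjusted p = 2.9e-08, edgeR). Both of the microexon regulators were thus higher in TdTomato+ cells, in every mouse.

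The neuronal Hu genes parted. ELAVL3 and ELAVL4, known as HuC and HuD, bind U-rich elements in pre-mRNA and mRNA and act on splicing, stability and translation. Elavl3 (chromosome 9, 22015005 to 22052023) was at 814, 787, 786, 785 and 821 CPM in TdTomato- and 1353, 1289, 1309, 1281 and 1279.5 CPM in TdTomato+ libraries. The gap was many times the spread within either population, and the rise was 1.63-fold (log2 fold change 0.71 ± 0.04, adjusted p = 1.4e-07, edgeR). Elavl4 (chromosome 4, 110203722 to 110351909) was at 205, 255, 259, 213 and 202 CPM in TdTomato- and 145, 199.6, 189, 179 and 134 CPM in TdTomato+ libraries. Mice 3 and 4 were highest in both populations, and the TdTomato+ library of mouse 3 nearly reached the lowest TdTomato- library. Elavl4 was 1.35-fold lower in TdTomato+ cells (log2 fold change -0.43 ± 0.05, adjusted p = 5.6e-05, edgeR), and its change differed from that of Elavl3 by 1.14 ± 0.12 on the log2 scale. The other Hu genes were lower too: neuronal Elavl2 (HuB) at 149 ± 15.8 against 206 ± 21.9 CPM (log2 fold change -0.47 ± 0.08, adjusted p = 0.00070, edgeR) and ubiquitous Elavl1 (HuR) at 153 ± 7.48 against 206 ± 12.3 CPM (log2 fold change -0.43 ± 0.04, adjusted p = 4.5e-06, edgeR). Elavl3 was therefore the 1 of 4 Hu genes that was higher in TdTomato+ cells.

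**Figure D3:**
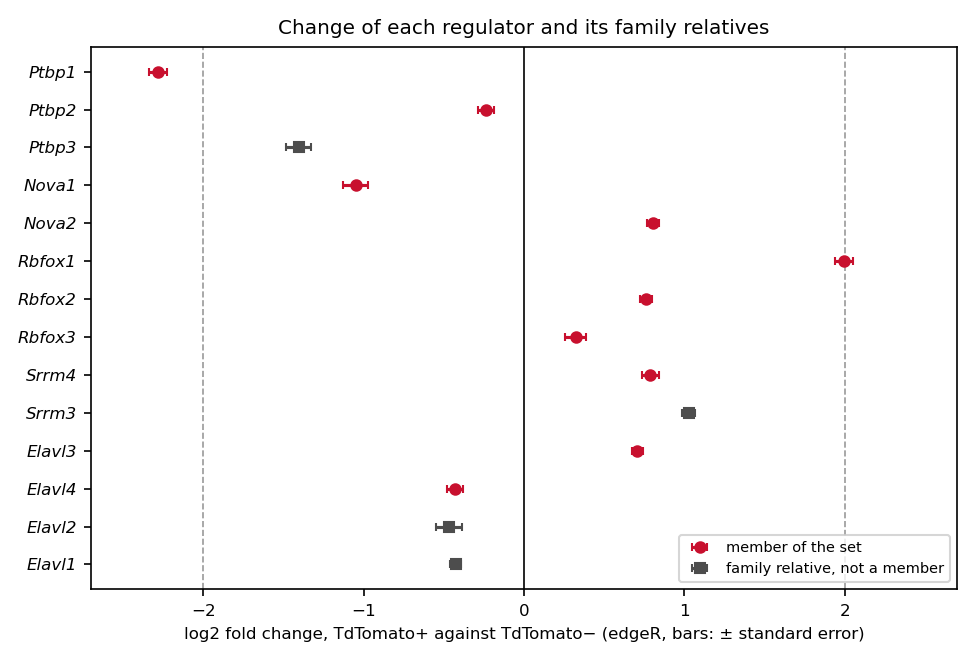
Log2 fold change of each regulator (red circles) and of 4 family relatives outside the set (grey squares), TdTomato+ against TdTomato- cells. Bars are ± 1 standard error, derived from edgeR's log2 fold change and F statistic, and dashed lines are at -2 and 2. Ptbp1 at -2.28 lies beyond the threshold, Rbfox1 at 1.99 next to it, and Ptbp2 and Rbfox3 closest to 0.

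Differences within families were compared in 6 pairs with an exact two-sided sign-flip permutation test over mice. Each of the 6 had the same sign in 5 of 5 mice, and this exact permutation test gave p = 0.0625, raw and Benjamini-Hochberg adjusted, the smallest p that this test can give with 5 mice, so that no pair could pass 0.05 by it. The sizes stand beside it. Ptbp2 against Ptbp1 differed most, with 1.72 to 2.36 over single mice, and Rbfox3 against Rbfox2 least, with -0.72 to -0.19.

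Levels were compared between genes as CPM per kilobase of exonic length. In TdTomato- cells the order was Elavl3 at 116 ± 2.56, Rbfox2 at 90.6 ± 1.86, Nova2 at 60.8 ± 2.52, Ptbp1 at 53.4 ± 2.83, Elavl4 at 42.1 ± 5.18, Ptbp2 at 35.8 ± 3.46, Srrm4 at 35.2 ± 2.04, Rbfox1 at 18.5 ± 1.89, Rbfox3 at 16.7 ± 1.17 and Nova1 at 7.02 ± 1.13. Neighbours that overlapped in range were Elavl4 and Ptbp2, Ptbp2 and Srrm4, and Rbfox1 and Rbfox3. The first 3 places were the same in TdTomato+ cells on this length, with Elavl3 at 189 ± 4.46, Rbfox2 at 154 ± 5.07 and Nova2 at 106 ± 3.42. Below these the order changed. Rbfox1 followed at 74.4 ± 12.3 and overlapped Srrm4 at 61.0 ± 6.49. Elavl4 at 31.4 ± 5.27 overlapped Ptbp2 at 30.4 ± 1.78, and Rbfox3 at 20.9 ± 2.49, Ptbp1 at 11.0 ± 0.66 and Nova1 at 3.38 ± 0.48 came last. Rbfox1 thus moved from the 8th to the 4th place and Ptbp1 from the 4th to the 9th. With the longest transcript as the length, 5 of 10 genes kept their place in TdTomato- and 6 of 10 in TdTomato+ cells, while Ptbp1 stayed 4th and 9th and Rbfox1 was 9th and 3rd. On that length the first 3 were Elavl3, Rbfox2 and Ptbp2 in TdTomato- cells and Elavl3, Rbfox2 and Rbfox1 in TdTomato+ cells, and Nova2 was 5th and 4th.

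The genes most like Ptbp1 over the 10 libraries, by Pearson's r of log2 CPM, were Phgdh (r = 0.9990), which encodes the first enzyme of serine synthesis, Cux1 (r = 0.9989), a homeodomain factor, and Rcc2 (r = 0.9988), a regulator of mitosis. These libraries form 2 populations, so r mostly shows the difference between them, and it is given as a description. The log2 fold changes were -3.77 ± 0.08 for Phgdh, -2.63 ± 0.05 for Cux1 and -1.57 ± 0.04 for Rcc2. Ptbp2 was closest to Ppp4r3b (r = 0.987), a subunit of protein phosphatase 4, to the translation initiation factor Eif5 (r = 0.984) and to Marcks (r = 0.984), a substrate of protein kinase C. Their log2 fold changes were -0.41 ± 0.08, -0.28 ± 0.05 and -0.61 ± 0.09.

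Partners and upstream genes of PTBP1 were examined next. Of its partners in repression, Raver2 was lower, at 12.1 ± 1.85 against 16.6 ± 1.60 CPM (log2 fold change -0.46 ± 0.10, adjusted p = 0.0026, edgeR), and the nuclear matrix protein gene Matr3, of whose exonic bases 17.3% overlap other genes, was higher, at 553 ± 37.4 against 380.5 ± 37.4 CPM (0.54 ± 0.07, adjusted p = 5.3e-05). Raver1 was not analysed here. Of 8 genes of the REST and miR-124 circuit, 3 were higher (37.5%, beside 37.9% of all genes) and 5 lower (62.5%, beside 39.4%), with a median of -0.42 beside -0.01 over all genes.

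The microRNA miR-124 targets Ptbp1, and the host genes examined for it, Mir124a-1hg and Mir124-2hg, were both higher in TdTomato+ cells. Mir124a-1hg was at 85.7 ± 19.6 CPM in TdTomato- cells against 145 ± 13.4 CPM in TdTomato+ cells (log2 fold change 0.78 ± 0.14, adjusted p = 0.00062, edgeR), and Mir124-2hg was at 75.3 ± 17.0 and 106 ± 12.9 CPM (0.51 ± 0.07, adjusted p = 0.00010). Mature miR-124 was not measured, since the libraries hold polyadenylated RNA. Ctdsp1, which encodes a phosphatase that works with REST outside neurons, fell furthest, from 40.5 ± 4.80 to 3.61 ± 0.54 CPM (-3.48 ± 0.11, adjusted p = 7.8e-09). Its relatives Ctdsp2, at 85.3 ± 6.55 against 156 ± 11.5 CPM (-0.87 ± 0.05), and Ctdspl, at 11.2 ± 1.49 against 17.4 ± 0.55 CPM (-0.64 ± 0.10), were lower as well. Of the REST corepressors, Rcor2 fell from 389 ± 25.7 to 177 ± 22.9 CPM (-1.14 ± 0.05) and Rcor1 from 77.9 ± 5.92 to 68.5 ± 8.91 CPM (-0.19 ± 0.05, adjusted p = 0.0063). Rest itself was slightly higher in TdTomato+ cells, at 33.2 ± 2.52 against 26.3 ± 3.32 CPM (0.34 ± 0.06, adjusted p = 0.00054), and the ranges of Rest, Rcor1 and Mir124-2hg overlapped between the populations.

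Transcripts that PTBP1 is known to keep low were higher in TdTomato+ cells in 5 of 5 cases, where 37.9% of all genes were higher, and 4 of the 5 are described. Dlg4, which encodes the postsynaptic scaffold PSD-95 and has an exon that PTB proteins repress, was at 264 ± 10.6 CPM in TdTomato- cells against 561 ± 20.0 CPM in TdTomato+ cells (log2 fold change 1.09 ± 0.04, adjusted p = 2.4e-08, edgeR). The other 3 carry introns whose retention PTBP1 favours. The synaptic vesicle protein gene Sv2a rose from 94.7 ± 11.9 to 251 ± 22.8 CPM (1.41 ± 0.06), the kinesin gene Kif5a from 277 ± 18.0 to 677 ± 47.2 CPM (1.29 ± 0.04), and Vamp2, which encodes part of the vesicle fusion complex, from 178 ± 10.7 to 308 ± 11.6 CPM (0.79 ± 0.04). The 8 neuron markers were higher as well, with a median of 1.56. Splicing of these transcripts was not measured.

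The general splicing machinery moved mostly one way. Of 13 SR and TRA2 proteins, 10 were lower and 1 higher, with a median of -0.57. Of 25 hnRNP and PCBP proteins, 23 were lower and 0 higher, with a median of -0.47 and a highest log2 fold change of -0.02. Of 35 core spliceosome genes, 32 were lower and 0 higher, with a median of -0.43 and a highest log2 fold change of 0.01, that of Sf3b1 (adjusted p = 0.83, edgeR). Over all genes 39.4% were lower, with a median of -0.01. Among these lists, the largest decreases were in Hnrnpf (-1.11 ± 0.05, adjusted p = 9.6e-08, edgeR; 26.5% of its exonic bases overlap other genes), which binds G-runs, and in Snrpb (-0.996 ± 0.05, adjusted p = 1.3e-07), which encodes a protein of the Sm ring. Hnrnpm (-0.80 ± 0.04), the U2 snRNP gene Sf3a3 (-0.82 ± 0.06), Srsf9 (-0.85 ± 0.05) and Srsf2 (-0.85 ± 0.04; 25.3% overlap) were the next named. Srsf12 was the 1 SR gene that was higher, at 31.4 ± 2.71 against 11.0 ± 1.36 CPM (1.52 ± 0.08, adjusted p = 3e-07).

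Genes outside the call were picked out after their values were seen: Srsf11 (-0.04) and Tra2a (0.05) among SR genes, Hnrnpr (-0.08) and Hnrnpul2 (-0.02) among hnRNP genes, and Sf3b1 (0.01), Snrnp70 (-0.00) and Srrm2 (-0.13) among core genes. Scaling by library totals moved the median of all genes by -0.18 on the log2 scale, and 11, 25 and 35 genes of these 3 lists were then lower. Of all 14300 genes, 7123 were lower and 4110 higher under that scaling, against 5632 and 5424 in the main fit. Of the 10 neuronal regulators, 5 were still higher under it.

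A further list held other regulators of alternative splicing, some broadly expressed and some enriched in certain tissues. Of 19 measured, 9 were higher (47.4%) and 8 lower (42.1%), beside 37.9% and 39.4% of all genes, with a median of -0.05, so that the counts were near the background. Khdrbs2, which encodes the neuronal STAR protein SLM1, was at 19.4 ± 1.37 CPM in TdTomato- cells against 55.5 ± 16.1 CPM in TdTomato+ cells (log2 fold change 1.47 ± 0.15, adjusted p = 2.2e-05, edgeR), and like Rbfox1 it was lowest in the TdTomato+ libraries of mice 3 and 4, at 39.1 and 37.7 CPM. Celf5, of the brain-enriched CELF proteins, rose from 275 ± 22.5 to 655 ± 47.3 CPM (1.25 ± 0.04, adjusted p = 5.5e-09). Rbm20, known for titin splicing in the heart, fell from 15.7 ± 3.36 to 0.93 ± 0.40 CPM (-4.09 ± 0.14, adjusted p = 1.7e-08). Quaking (Qk), a STAR protein of progenitors and glia, fell from 307 ± 21.6 to 54.3 ± 3.59 CPM (-2.50 ± 0.05, adjusted p = 1.6e-09). Mbnl2 (-0.17) and Tial1 (-0.05), named after their values were seen, did not pass the test.

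**Figure D4:**
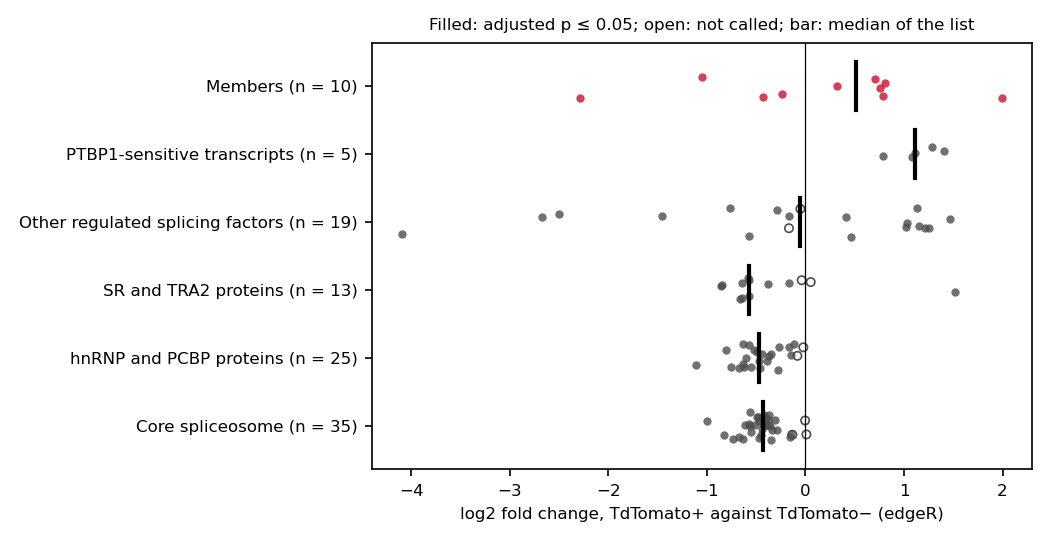
Log2 fold change, TdTomato+ against TdTomato- cells, of every measured gene in 6 lists (n given at each list), with filled points at an adjusted p of 0.05 or less, open points not called, and a bar at the median of the list. The 10 regulators span -2.28 to 1.99, while hnRNP, SR and core spliceosome genes lie mostly below 0 with medians of -0.47, -0.57 and -0.43.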

How the data were processed

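The authors deposited whole-number counts of reads per gene, with no normalization. Before that they trimmed the reads with Trim Galore, aligned them to GRCm38 using STAR, allowing 1 mismatch, and kept unique alignments. The annotation release and strand column are not given in the sources used here, the methods and the sample descriptions differ in library kit, sequencer and read length, and the paper states that outliers were removed. Genes were annotated with GENCODE M21 of GRCm38, which named 14271 of 14300 identifiers and left 29 without a symbol.

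All 10 libraries were fitted in R 4.3.3 by the quasi-likelihood F-test of edgeR 4.0.16 after filterByExpr and TMM scaling, with the mouse as a block. P-values were adjusted by Benjamini-Hochberg for 14300 genes. A call needs an adjusted p of 0.05 or less, and both thresholds add an absolute log2 fold change of 2 or more. Values are CPM after TMM scaling. The standard error of a log2 fold change was derived as its absolute value divided by the square root of the F statistic. The log2 CPM of single libraries used a prior count of 2. A count of 3, taken as the floor, was 0.104 to 0.136 CPM, and it covers counting error only. The TMM factor was 1.06 to 1.07 for TdTomato- cells, against 0.93 to 0.95 for TdTomato+ cells. The mouse numbers in the sample titles join the populations. Deviations from the group means correlated at 0.186 to 0.316 across genes between libraries of the same number and at -0.312 to 0.212 between others, so the numbers were used as pairs. No 2 libraries of a population agreed within sampling noise (chi-square per degree of freedom of 4.46 to 32.0). Whether a mouse number is 1 embryo is not given in the sources used here. With the mouse as a block, p-values measure the spread of the difference between populations over these pairs of samples.

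The 10 regulators and the gene lists were chosen with earlier results of these data known. Genes were named if they were regulators, relatives, PTB partners, genes of the REST and miR-124 circuit or PTBP1-sensitive transcripts. Of the longer lists, the 2 largest increases and 2 largest decreases were named among called genes whose mean log2 CPM was 3 or more. The 3 genes most correlated with Ptbp1 and with Ptbp2, and Grem1, were named as well. A gene that this rule names is not reported here. Exons were read from the GRCm38 transcripts. The procedure was tested on simulated counts. Alternatives were RLE, upper-quartile and total-count scaling, DESeq2 1.42.0, other count filters, robust estimation, no mouse block, each mouse left out, another prior count and another gene length.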

Additional observations from a re-analysis of the deposited data

Results flagged for a closer look

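In groups of 5 libraries, the gap between an extreme library and its nearest neighbour was set against the range of the group with Dixon's 95% critical value of 0.71. Of 80 groups examined, 2 exceeded it, where chance flags about 1 in 20, or 4 groups. In TdTomato- cells, mouse 4 had the lowest Srrm4, 274 CPM against 312 to 317 CPM in the other TdTomato- libraries (ratio 0.894). Rcor1, which encodes the REST corepressor CoREST, was lowest in that same library, with 67.8 CPM against 77.8 to 82.1 CPM (ratio 0.719).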

How the results depend on the processing

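The mouse numbers were used as a block, and without the replicate block 2 of the 10 regulators passed both thresholds in place of 1, Rbfox1 joining Ptbp1 at a log2 fold change of 2.00. Leaving out each mouse in turn gave 1 to 2, with Rbfox1 joining without mouse 3, 4 or 6. The block changed no other call among the 10. Scaling by library totals, which moved the median of all genes by -0.18, gave 5 regulators higher and 4 lower, with Rbfox3 at 0.14 (adjusted p = 0.069). The higher share of all calls was then 36.6% in place of 49.1%. All 10 regulators kept their direction under every alternative run. Log2 fold changes without 1 mouse ranged from -2.33 to -2.25 for Ptbp1, -0.28 to -0.20 for Ptbp2 and 0.28 to 0.40 for Rbfox3. With the longest transcript as length, 5 regulators kept their place in TdTomato- and 6 in TdTomato+ cells. The 10 regulators had 542 to 29843 counts in a library. The gene-level counts do not show exon usage.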
